A study of Rattus norvegicus with 18 samples.

Results

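The 10 genes described here are glycolysis and hypoxia-responsive genes, and they were found by name in the gene tables of a rat neuroglial culture study. They are the glucose transporters Slc2a1 and Slc2a3, the hexokinases Hk1 and Hk2, the glycolytic regulator Pfkfb3, the glycolytic enzymes Pgk1 and Ldha, the pyruvate dehydrogenase kinase Pdk1, and the secreted factors Vegfa and Adm. A row was taken where its name equalled one of these symbols, ignoring case, which gave 10 of the 31463 rows of each table. All 10 were among the 14398 genes that passed the filter on low counts. The 10 genes did not share a direction in cultures given glutamate: Hk2 was higher in every Glutamate library than in any Control library, Slc2a1 was higher on average, Slc2a3 was lower on average, and Ldha, Pdk1 and Vegfa differed little. No difference passed an adjusted p of 0.05 in edgeR's quasi-likelihood test, and the call for Hk2 depended on the test used.

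Glycolysis breaks glucose down to pyruvate in the cytosol, and it begins with glucose uptake by transporters and its phosphorylation by hexokinases. When oxygen is low, the subunits of the hypoxia-inducible factors escape degradation and bind short DNA motifs, which raises transcription of many glycolytic genes and of the angiogenic factor Vegfa. In brain, glial cells are known for active glycolysis and lactate release, whereas neurons depend more on oxidative metabolism and carry Slc2a3 as their main glucose transporter.

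RNA was sequenced from primary neuroglial cultures of newborn Wistar rat cortex on day 10 in vitro, with 3 libraries in each of 6 groups. Control cultures received no glutamate, and the Glutamate group received 100 µM glutamate, which models excitotoxicity, the damage of neurons by excess glutamate. The Memantine group received 100 µM memantine, which blocks NMDA receptors for glutamate; glutamate is not in its label but follows from the design text. Glutamate_vesicles, Glutamate_secret and Glutamate_BPC received secreted material of glial progenitor cells 1 day before glutamate. These progenitor cells had been derived from human induced pluripotent stem cells of 1 donor. The vesicle group is named by its label, but for Glutamate_secret and Glutamate_BPC the labels leave unclear which preparation, protein fraction or total secretome, was used. RNA was extracted 4 h after modelling in every group. The labels do not say whether the 3 libraries of a group came from separate animals or cultures, so p-values measure the spread between these libraries, which may be technical in part.

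Library totals ranged from 8409574 (Control 1) to 17206354 (Glutamate_vesicles 2) estimated counts, and ribosomal RNA took from 3.04% to 43.0% of them, with Control 1 at the top. Levels are given as CPM, counts scaled to a common library total with TMM factors, a correction for differences in RNA composition between libraries. The scaling factor was lowest in Control 1, at 0.417. Gene lengths were not used, so levels are compared between libraries and not between genes. The cultures held neuronal, astrocytic and oligodendrocyte-lineage markers, with Gfap and Slc1a3 abundant, as a neuroglial culture does, while endothelial markers summed to at most 4.32 CPM and fibroblast and mural markers to at most 18.7 CPM in any library. The summed level of 6 neuronal markers was 926 to 1301 CPM in Control and 285 to 384 CPM in Glutamate. It was 900.5 and 1327 CPM in Memantine 1 and 2 but 238 CPM in Memantine 3, which therefore stood with the glutamate libraries. In bulk RNA, fewer cells of a type and less RNA per cell cannot be told apart.

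The core of the hypoxia response element, ACGTG or GCGTG on either strand, was searched in the RefSeq promoters of the GRCr8 assembly, from 250 bases before to 50 bases after each start. The reference table held 8 of the 10 members; Slc2a3 and Pgk1 had no entry. At least 1 match lay in 41.6% of all 33469 promoters. Ldha had 6 matches at 5 separate places, Slc2a1 and Pdk1 had 4 each, Pfkfb3 had 2 at 1 place, and 1 of the 2 Hk1 promoters had 1. In Ldha and Pfkfb3 a pair of matches on opposite strands overlaps as the palindrome CACGTG. The other Hk1 promoter and those of Hk2, Vegfa and Adm had 0. The 4 stretches below show such a match in the glucose transporter, the glycolytic regulator, the lactate enzyme and the pyruvate dehydrogenase kinase. Each lies upstream of the start on the plus strand, written 5′ to 3′, with the letters of 1 plus-strand match in capitals. Further minus-strand matches within the Ldha and Pfkfb3 stretches are not marked.
Slc2a1, chr5:138002451-138002495: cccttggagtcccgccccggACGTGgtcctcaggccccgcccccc
Pfkfb3, chr17:71944872-71944916: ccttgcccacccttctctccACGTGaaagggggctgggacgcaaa
Ldha, chr1:106507986-106508030: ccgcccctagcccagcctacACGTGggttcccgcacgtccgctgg
Pdk1, chr3:77113363-77113407: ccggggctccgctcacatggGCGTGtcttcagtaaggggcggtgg
A match describes the letters of the window and is neither a bound site nor a cause of any level given here.

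**Figure D1:**
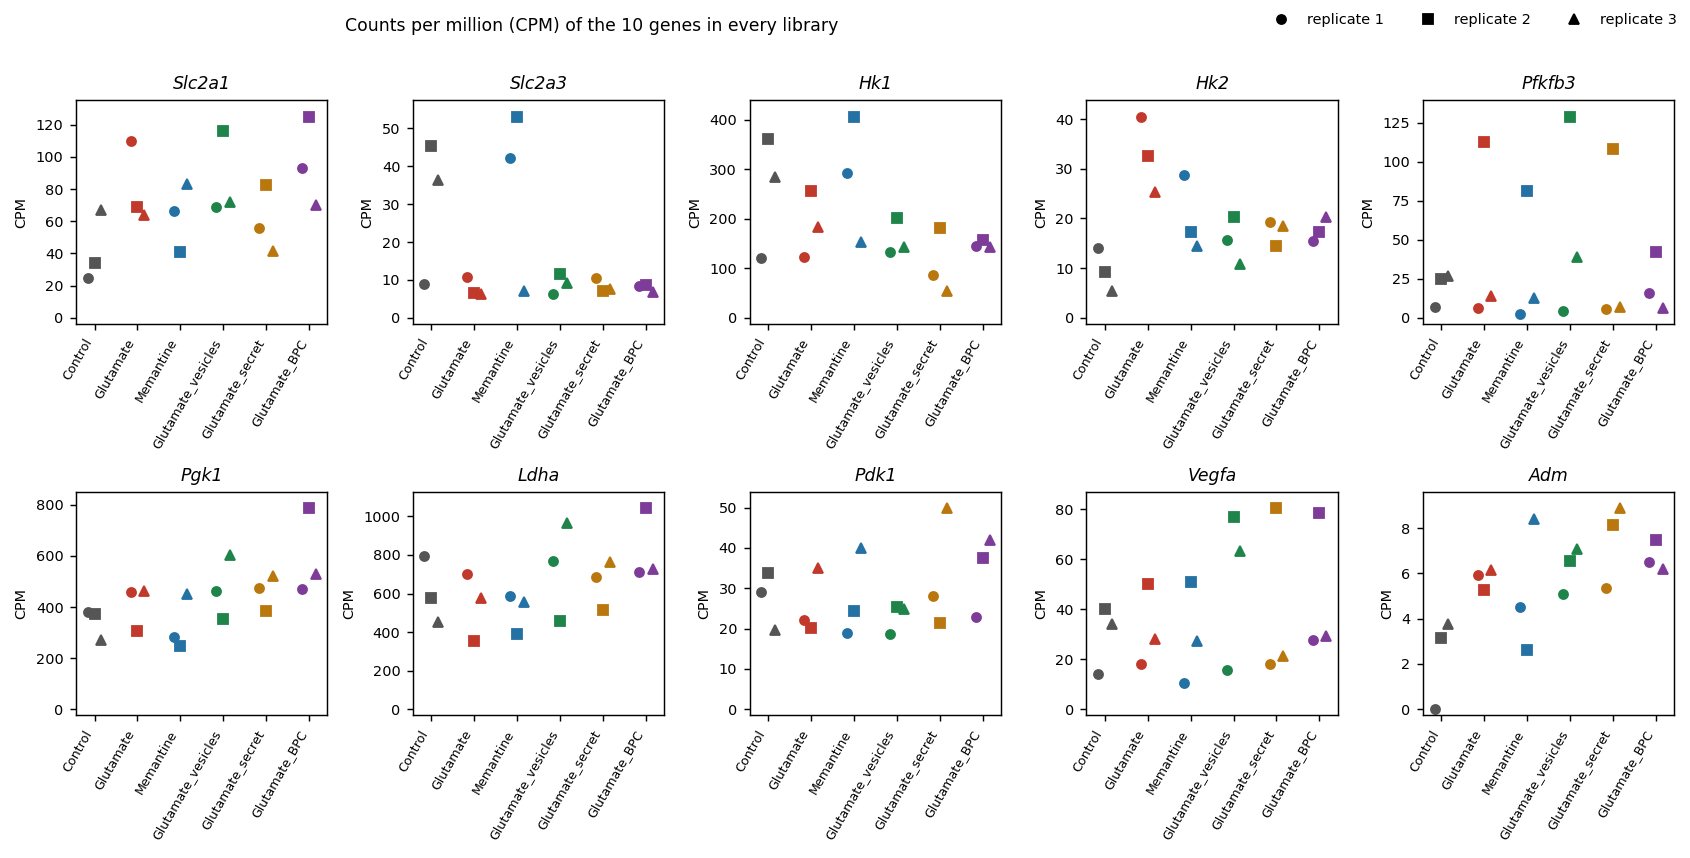
CPM (TMM-scaled, linear axes that differ between panels) of the 10 genes in the 18 libraries. Each symbol is 1 library, and its shape gives the replicate number. Hk2 stands at 25.3 to 40.4 CPM in Glutamate and at 5.44 to 14.0 CPM in Control, whereas Pfkfb3 is highest in replicate 2 of 5 of the 6 groups.

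Hk2, the inducible hexokinase, separated Glutamate from Control most clearly among the members. Its level was 14.0, 9.13 and 5.44 CPM in Control libraries 1, 2 and 3, and 40.4, 32.5 and 25.3 CPM in the Glutamate libraries. The lowest Glutamate library was above the highest Control library, as it was for 4.48% of all genes. The group means were 32.7 ± 7.57 CPM and 9.52 ± 4.29 CPM (SD, n = 3 each). The log2 fold change was 1.80 (SE 0.40). The unadjusted p of edgeR's quasi-likelihood test was 0.00037 and its adjusted p over all genes 0.261, so Hk2 was not called. Other tests of the same counts did call it, with an adjusted p of 0.00365 in DESeq2, 0.0267 in edgeR's likelihood-ratio test, and 0.0435 with the ribosomal RNA share as a covariate. Across all alternatives the log2 fold change of Hk2 lay between 1.52 and 2.17 and its adjusted p between 0.00365 and 0.841.

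Hk2 was at intermediate levels in the treated cultures. It was 28.8, 17.3 and 14.4 CPM in the Memantine libraries and 15.7, 20.3 and 10.8 CPM in the Glutamate_vesicles libraries. It was 19.4, 14.5 and 18.5 CPM in the Glutamate_secret libraries and 15.5, 17.4 and 20.3 CPM in the Glutamate_BPC libraries. Each library given vesicles, secret or BPC material was below every Glutamate library, where 3.38%, 2.01% and 4.24% of all genes were. Memantine 1 lay within the Glutamate range of Hk2. The log2 fold change against Glutamate was -1.07 for vesicles, -0.91 for secret and -0.89 for BPC (SE 0.39 each). The unadjusted p of edgeR's quasi-likelihood test was 0.0141, 0.0324 and 0.0359 in that order, and the adjusted p was 1 in each. Outside Glutamate against Control, log2 fold changes are given here only for genes with an unadjusted p below 0.05, unless the text says otherwise. These comparisons share the 3 Glutamate libraries and are not independent. Against Control, Hk2 had a log2 fold change of 1.10 (adjusted p = 1) in Memantine, 0.89 (adjusted p = 0.386) in Glutamate_secret and 0.91 (adjusted p = 0.392) in Glutamate_BPC.

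Hk1, the constitutive hexokinase of brain, was not higher in Glutamate than in Control. Its level was 121, 361 and 284 CPM in Control, 122, 256 and 182 CPM in Glutamate and 291, 405 and 152 CPM in Memantine. The ranges of these groups overlapped, and the log2 fold change of Glutamate against Control was -0.45 (SE 0.50, adjusted p = 0.999; -0.79 without Control 1 and -0.11 without Control 2). Hk1 was 133, 201 and 142 CPM with vesicles, 86.5, 180.4 and 53.9 CPM with secret and 144, 157 and 143 CPM with BPC. The lowest group mean was that of Glutamate_secret, at a log2 fold change of -1.26 from Control (SE 0.51, adjusted p = 0.339). With the ribosomal RNA share as a covariate that adjusted p was 0.0304.

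The ratio of both hexokinases within a library does not depend on scaling between libraries. The log2 ratio of Hk2 to Hk1 counts was -3.10, -5.30 and -5.70 in Control and -1.60, -2.98 and -2.85 in Glutamate. All Glutamate libraries were above all Control libraries. The difference of the means was 2.23, with an exact two-sided permutation p of 0.1, the smallest that 3 against 3 libraries can give; adjusted over the 10 ratio comparisons it was 0.25. The difference from Glutamate was -1.29 in Memantine and -0.89 in Glutamate_vesicles, again with an exact permutation p of 0.1, and -0.59 in Glutamate_BPC (exact permutation p = 0.3), whereas Glutamate_secret was at -2.44 ± 1.08 and Glutamate at -2.48 ± 0.76 (SD, n = 3 each; exact permutation p = 0.9).

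**Figure D2:**
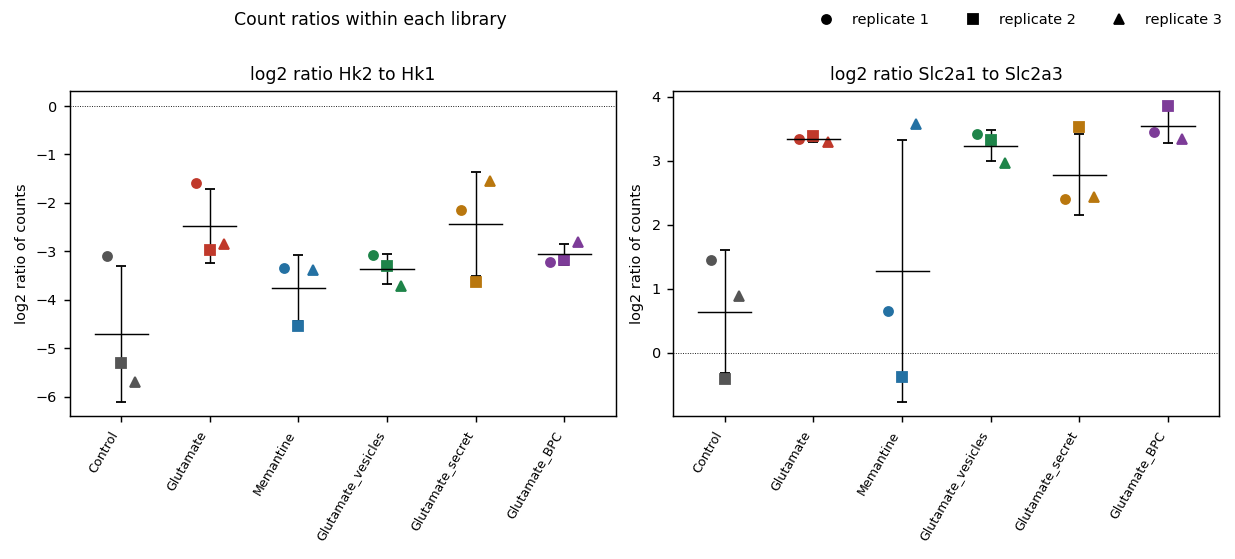
Log2 ratios of counts within each library, Hk2 to Hk1 on the left and Slc2a1 to Slc2a3 on the right; symbols are libraries shaped by replicate number, lines group means and bars SD (n = 3). In Glutamate the Slc2a1 to Slc2a3 ratio lies at 3.30 to 3.39, and in Memantine 3 at 3.57, above the other Memantine libraries.

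The mean differences of the 2 glucose transporters between Glutamate and Control had opposite signs. Slc2a1, the transporter of glia and of the blood-brain barrier, was at 24.6, 34.0 and 66.9 CPM in Control and 110.2, 68.9 and 63.7 CPM in Glutamate. Control 3 lay within the Glutamate range, and the other Control libraries lay below it. The log2 fold change was 0.95 (SE 0.43), with an unadjusted p of 0.0423 and an adjusted p of 0.590 by edgeR's quasi-likelihood test; without Control 3 it was 1.47 (adjusted p = 0.408). Slc2a1 was 66.1, 40.9 and 83.1 CPM in Memantine, 68.7, 116 and 71.7 CPM in Glutamate_vesicles, 55.9, 82.6 and 41.6 CPM in Glutamate_secret and 93.2, 125 and 70.1 CPM in Glutamate_BPC. Every library of the vesicle and BPC groups was above every Control library, where 9.72% and 12.2% of all genes were. The log2 fold changes of Slc2a1 against Control were 1.03 (SE 0.43, adjusted p = 0.362) and 1.20 (SE 0.43, adjusted p = 0.323), the former 1.55 without Control 3. No comparison with Glutamate gave an unadjusted p for Slc2a1 under 0.05.

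Slc2a3, the neuronal glucose transporter, was at 8.85, 45.3 and 36.3 CPM in Control and 10.8, 6.54 and 6.42 CPM in Glutamate. Control 1, the library with the largest share of ribosomal RNA, lay inside the Glutamate range, and Control 2 and 3 were far above it. The log2 fold change was -1.94 (SE 0.63), with an unadjusted p of 0.00765 and an adjusted p of 0.364 by edgeR's quasi-likelihood test. With 1 library left out it ranged from -2.36 (without Control 1, adjusted p = 0.213) to -1.52 (without Control 2, adjusted p = 0.873). Slc2a3 was 6.38, 11.6 and 9.14 CPM with vesicles, 10.6, 7.17 and 7.60 CPM with secret and 8.51, 8.59 and 6.83 CPM with BPC. The libraries of these 3 groups and of Glutamate therefore covered nearly the same low range. Against Control the log2 fold changes were -1.74 (adjusted p = 0.282), -1.85 (adjusted p = 0.25) and -1.92 (adjusted p = 0.303).

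Memantine libraries were split for Slc2a3, at 42.1, 53.0 and 6.97 CPM. Memantine 1 and 2 were as high as Control 2 and 3, and Memantine 3 was as low as the Glutamate libraries. The log2 fold change of Memantine against Glutamate was 2.10 (SE 0.64, adjusted p = 0.611). With 1 library left out it ranged from 1.63 to 2.58. The highest value and the lowest adjusted p, 0.0270, came without Memantine 3. The same libraries stood apart in the summed neuronal markers, as given above, except Control 1, which had 939 CPM of neuronal markers and 8.85 CPM of Slc2a3. Of the 6 neuronal markers, 6 had a lower mean in Glutamate than in Control, 3 of them (Snap25, Tubb3 and Nefl, singled out after their values were seen) at an unadjusted p below 0.05, with a median log2 fold change of -1.52 beside 0.085 over all genes. All 6 astrocytic, all 6 microglial and all 6 oligodendrocyte-lineage markers had a mean log2 fold change above 0, with medians of 0.69, 0.83 and 0.59, and 0 of them had an unadjusted p below 0.05. Of the endothelial list only Pecam1 was tested (-2.04, adjusted p = 0.492), and of the fibroblast and mural list 3 were, with a median of 0.57. With the ribosomal RNA share as a covariate the log2 fold change of Slc2a3 in Glutamate against Control was -1.71 (adjusted p = 0.151), and the part of neuronal RNA content in it was not tested. The ratio of Slc2a1 to Slc2a3 within libraries was 0.64 ± 0.96 in Control and 3.34 ± 0.046 in Glutamate on the log2 scale (SD, n = 3 each), a difference of 2.70 (exact permutation p = 0.1, the smallest possible; adjusted 0.25). In Memantine the mean ratio was 1.28 ± 2.05 (SD, n = 3), a difference from Glutamate of -2.06 (exact permutation p = 0.4). The differences of vesicles, secret and BPC from Glutamate were -0.10, -0.56 and 0.21 (exact permutation p of 0.8, 0.4 and 0.2).

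**Figure D3:**
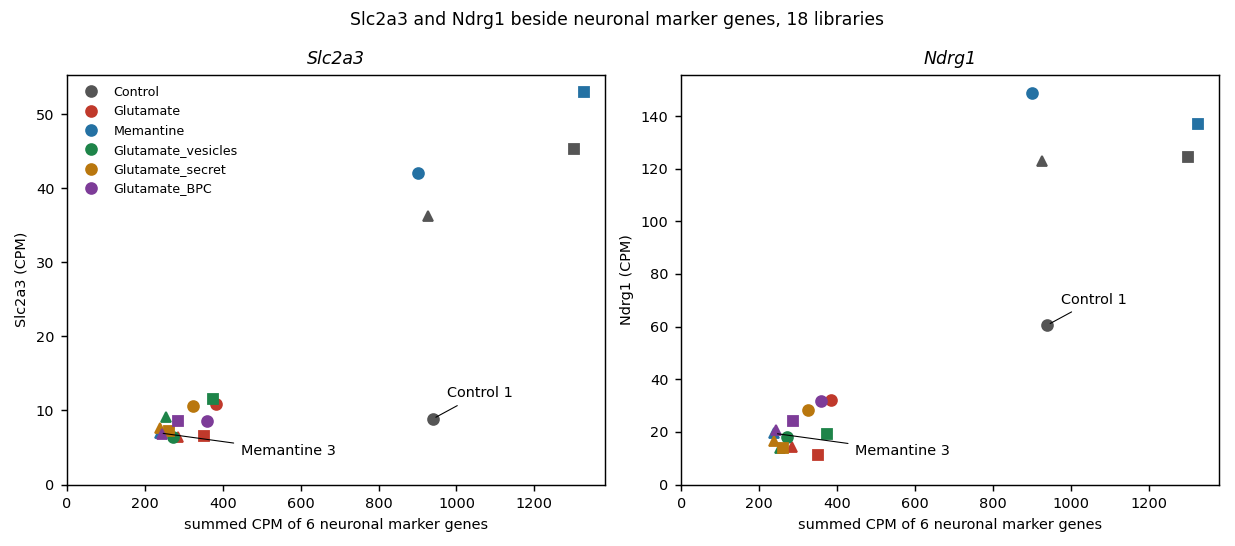
CPM of Slc2a3 (left) and of the hypoxia-responsive gene Ndrg1 (right) against the summed CPM of 6 neuronal markers, 1 symbol per library, coloured by group and shaped by replicate number as in the plot of levels. Control 2 and 3 and Memantine 1 and 2 lie at the upper right, Memantine 3 lies among the glutamate libraries, and Control 1 has 939 CPM of neuronal markers with 8.85 CPM of Slc2a3.

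Pfkfb3, which makes the activator of phosphofructokinase and so drives glycolytic flux, varied mostly with the replicate number. It was 6.85, 24.7 and 26.7 CPM in Control, 6.20, 113 and 14.1 CPM in Glutamate and 2.58, 81.2 and 12.4 CPM in Memantine. Replicate 2 was the highest library in each treated group. Pfkfb3 was 4.29, 129 and 39.1 CPM with vesicles, 5.36, 108 and 6.70 CPM with secret and 15.8, 41.9 and 6.29 CPM with BPC. Over the 6 groups, replicate 1 had a median of 5.78 CPM, replicate 2 of 94.7 CPM and replicate 3 of 13.3 CPM. The Glutamate against Control log2 fold change was 1.18 (SE 1.42, adjusted p = 0.999), and without Glutamate 2 it was -0.95, so its direction rested on that library.

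Pgk1 and Ldha act late in glycolysis; Pgk1 makes ATP and Ldha converts pyruvate to lactate. Both are known to have processed copies in rodent genomes, and how the quantification shared reads with such copies is not known. Pgk1 was 381, 373 and 272 CPM in Control and 459.7, 306 and 461 CPM in Glutamate, and Ldha was 793, 575 and 449.8 CPM in Control and 703, 352 and 576 CPM in Glutamate. The ranges overlapped for both, at log2 fold changes of 0.26 (SE 0.36) and -0.16 (SE 0.40), each with an adjusted p of 0.999. Both had their highest group mean in Glutamate_BPC, with Pgk1 at 473, 786 and 528 CPM and Ldha at 713, 1041 and 726 CPM. These libraries were above all 3 Glutamate libraries for both genes, where 2.88% of all genes were. Against Control the log2 fold change of Pgk1 in Glutamate_BPC was 0.80 (SE 0.37, adjusted p = 0.422). In Memantine, Pgk1 was 283, 247 and 451 CPM and Ldha 588, 389 and 557 CPM. With vesicles, Pgk1 was 463, 353 and 605 CPM and Ldha 769, 458 and 966 CPM, and with secret, Pgk1 was 473, 384 and 522 CPM and Ldha 685, 515 and 764 CPM. In the Glutamate, Memantine, vesicle and secret groups, replicate 2 was the lowest library for both genes.

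Pdk1 holds pyruvate back from the mitochondria by inhibiting pyruvate dehydrogenase. It was 29.1, 33.8 and 19.7 CPM in Control, 22.2, 20.3 and 35.1 CPM in Glutamate and 18.9, 24.3 and 40.1 CPM in Memantine. It was 18.6, 25.2 and 24.9 CPM with vesicles, 28.2, 21.3 and 49.8 CPM with secret and 22.8, 37.5 and 42.0 CPM with BPC. The ranges of all 6 groups overlapped one with the next, and Glutamate differed from Control by a log2 fold change of -0.09 (SE 0.40, adjusted p = 0.999).

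Vegfa and Adm encode secreted factors, vascular endothelial growth factor A and the vasodilator peptide adrenomedullin. Vegfa was 14.0, 40.0 and 34.3 CPM in Control and 18.2, 50.2 and 28.2 CPM in Glutamate, a log2 fold change of 0.13 (SE 0.74, adjusted p = 0.999). Replicate 2 was the highest library for Vegfa in every group, replicate 1 the lowest. Vegfa was 10.4, 51.1 and 27.4 CPM in Memantine, 15.9, 77.1 and 63.4 CPM with vesicles, 17.96, 80.3 and 21.2 CPM with secret and 27.5, 78.3 and 29.2 CPM with BPC. Adm was low in Control, at 0, 3.14 and 3.77 CPM; Control 1 had 0 counts, which allows up to 0.857 CPM at 3 counts, a limit that covers counting error only. The Glutamate libraries, at 5.94, 5.27 and 6.13 CPM, were all above the Control libraries, where 4.48% of all genes were. The log2 fold change was 1.23 (SE 0.69, adjusted p = 0.763). Without Control 1 it was 0.74. Adm was 4.51, 2.61 and 8.41 CPM in Memantine, 5.08, 6.54 and 7.10 CPM with vesicles, 5.36, 8.14 and 8.87 CPM with secret and 6.52, 7.49 and 6.18 CPM with BPC. Against Control the log2 fold change in Glutamate_secret was 1.60 (SE 0.70, adjusted p = 0.382).

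**Figure D4:**
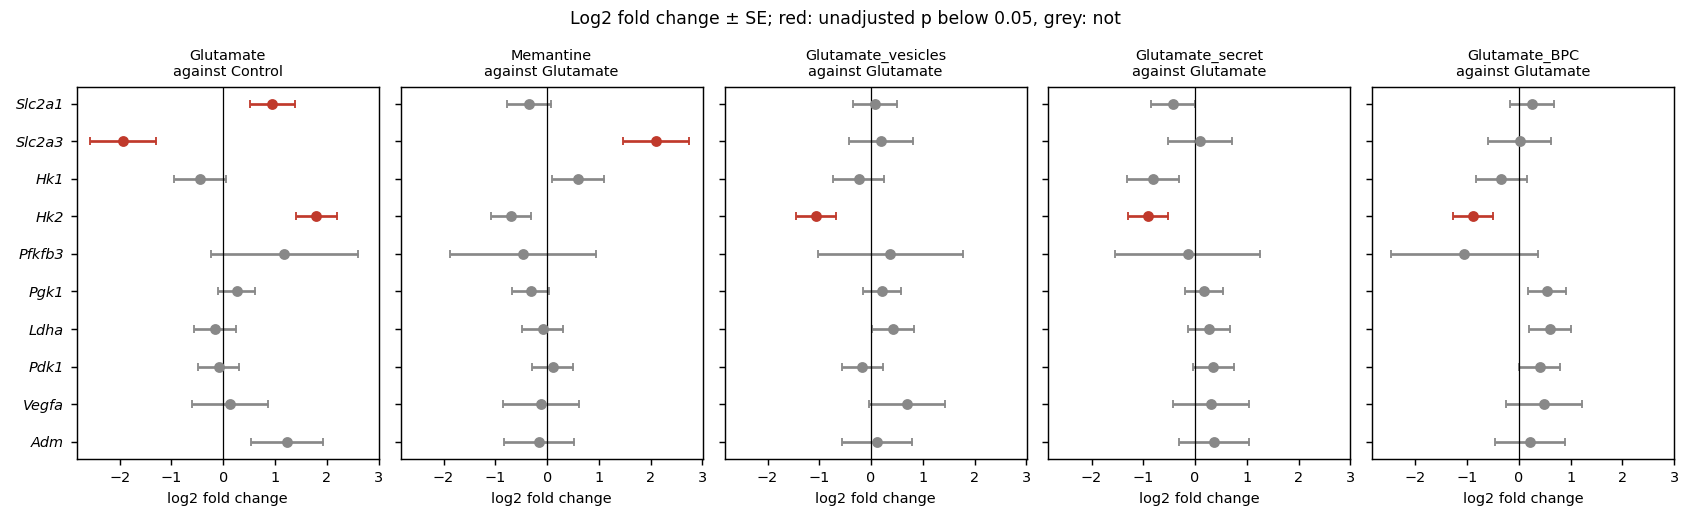
Log2 fold change (dot) and SE (bar) of the 10 genes in 5 comparisons, Glutamate with Control and the 4 treated groups with Glutamate, from edgeR's quasi-likelihood fit; red marks an unadjusted p below 0.05. Hk2 is at 1.80 in the first panel and at -1.07, -0.91 and -0.89 in the vesicle, secret and BPC panels; no adjusted p is below 0.05.

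Counted together, 0 of 10 members passed an adjusted p of 0.05 by edgeR's quasi-likelihood test in Glutamate against Control, where 0% of all 14398 genes did, and 3 of 10 had an unadjusted p below it, where 8.11% of all genes did; 2 of these were higher (2.13% of all genes) and 1 lower (5.97%). DESeq2 and edgeR's likelihood-ratio test each called 1 member, Hk2, where they called 1.67% and 0.313% of all genes. In Memantine against Glutamate 0 members were called (0% of all genes) and 1 had an unadjusted p below 0.05 (5.08%); with the replicate number as a block it was 2, Slc2a3 and Hk2, where it was 8.03% of all genes. The vesicle, secret and BPC groups against Glutamate had 0 members called (0% of genes each) and 1 each, Hk2, at an unadjusted p below 0.05, where 1.08%, 0.681% and 1.07% of all genes were. With the replicate block the secret comparison had 2, Hk2 and Hk1, where 3.24% of all genes passed.

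Against Control, Memantine had 0 members called (0% of genes) and 1 at an unadjusted p below 0.05 (1.12%). Glutamate_vesicles had 0 called (0.0139%) and 2 at that p, where 11.6% of all genes were; with the replicate block it was 4, namely Slc2a1, Slc2a3, Hk2 and Adm, where 19.8% of all genes passed and 3.74% were called. Glutamate_secret and Glutamate_BPC had 0 called (0% each) and 4 each at an unadjusted p below 0.05, where 11.8% and 11.3% of all genes were. In these 8 comparisons DESeq2 and the likelihood-ratio test called 0 members as well, where DESeq2 called 0% to 3.39% and the likelihood-ratio test 0% to 1.55% of all genes. In the test of any difference among the 6 groups 0 members were called, where 0.00695% of all genes were; Slc2a3 (adjusted p = 0.175) and Hk2 (adjusted p = 0.291) had the smallest p and were the 2 members with an unadjusted p below 0.05, where 7.75% of all genes had one. DESeq2 called both (4.99% of all genes), with an adjusted p of 0.00232 for Slc2a3 and 0.0199 for Hk2, and the likelihood-ratio test called Slc2a3 (4.08% of all genes), with an adjusted p of 0.00282.

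Ranges of Glutamate and Control did not overlap for 2 of 10 members, Hk2 and Adm, beside 12.2% of all genes. For BPC against Glutamate it was 4, with Pgk1, Ldha and Adm above and Hk2 below, beside 7.13% of all genes. For vesicles and secret against Glutamate it was 1 each, Hk2, beside 6.27% and 3.41%, and for Memantine against Glutamate 0 beside 2.86%. Against Control it was 1 in Memantine (2.35% of all genes), 2 in vesicles (19.5%) and 3 in secret (15.9%). In BPC against Control 4 members were above and 1 below, beside 12.2% and 12.7% of all genes. The group means of each member were also put in order over the 6 groups. For all 10 members the ranges of neighbouring groups in that order overlapped. Hk2 was ordered from Glutamate through Memantine, BPC, secret and vesicles to Control, and Slc2a3 from Memantine and Control through vesicles, secret and BPC to Glutamate.

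**Figure D5:**
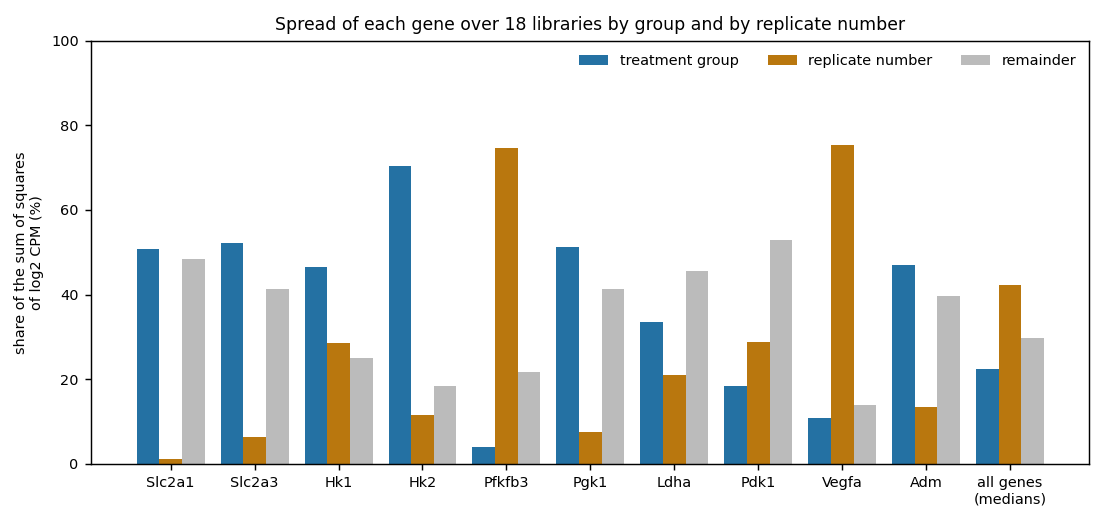
Share of the sum of squares of log2 CPM (bars, in percent, from 0) that lay between groups, between replicate numbers and in the remainder, for each gene over 18 libraries, with the medians over all tested genes at the right. Hk2 has 70.3% between groups, and Pfkfb3 and Vegfa have 74.6% and 75.4% between replicate numbers.

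The members differed in how their spread was divided. Of the sum of squares of log2 CPM over the 18 libraries, the group took 70.3% for Hk2, 52.2% for Slc2a3, 51.2% for Pgk1, 50.7% for Slc2a1, 47.0% for Adm and 46.5% for Hk1, beside a median of 22.4% over all tested genes. Among these, only Hk2 and Slc2a3 had an unadjusted p below 0.05 in edgeR's quasi-likelihood test over the 6 groups. That p was 0.221 for Pgk1, 0.138 for Slc2a1, 0.35 for Adm and 0.11 for Hk1. The replicate number took 75.4% for Vegfa and 74.6% for Pfkfb3, beside a median of 42.2%. It took 0.995% for Slc2a1 and 6.37% for Slc2a3. What a replicate number stands for is not given in the labels. The study's supplement names a day covariate for its cultures without glutamate, untreated or given vesicles. For the glutamate groups it mentions batch correction without naming the batch.

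Genes with the most similar pattern were sought by Pearson's r of log2 CPM over the same 18 libraries, given as a description without a test, since all points share library depth and composition. For Slc2a3 they were Jup (r = 0.966) and Amz2 (0.965), for Hk1 Kdm4b (0.964) and Mgat3 (0.962). For Hk2 they were Cry1 (0.782) and Akap13 (0.776), the weakest best matches among the members. Pfkfb3 was closest to LOC103692025 (0.985) and Mex3c (0.984), Vegfa to Zfp422 (0.972) and Tgfbr1 (0.948), and Adm to Slc31a2 (0.962) and Rexo5 (0.961). For the other members the highest r was 0.897 (Slc2a1 with Frmpd1), 0.878 (Ldha with Coq2), 0.877 (Pgk1 with Msrb2) and 0.854 (Pdk1 with Hpgds).

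Other genes of the same pathways were read from lists, and 0 of them were called in any comparison by edgeR's quasi-likelihood test. Where DESeq2 called a gene named below, its adjusted p is given. Of 15 tested genes for further glycolytic steps and lactate transport, 0 had an unadjusted p below 0.05 in Glutamate against Control, and their median log2 fold change was -0.069 beside 0.085 over all genes. Eno2, the neuronal enolase, had a log2 fold change of 1.05 in Memantine against Glutamate (adjusted p = 0.938; 0.30 without Memantine 1) and of -1.15 in Glutamate_vesicles against Control (adjusted p = 0.359). Pfkm, the muscle-type phosphofructokinase, was at -0.89 (adjusted p = 0.318) and -0.83 (adjusted p = 0.356) in vesicles and secret against Control. Slc16a7, a neuronal monocarboxylate transporter, was at -2.29 in secret against Control (adjusted p = 0.316), and at -3.70 without Glutamate_secret 2. Its levels were 0.315, 1.37 and 0.181 CPM with secret and 5.14, 3.34 and 1.885 CPM in Control. In Glutamate_secret 1 and 3 they lay below the level of 3 counts, 0.473 and 0.543 CPM. Other genes of the list were higher against Control at an unadjusted p below 0.05, and they are named here after their values were seen. Pgam1, a phosphoglycerate mutase, was at 0.71 and 0.76 in vesicles and BPC against Control (adjusted p = 0.0352 and 0.0310 in DESeq2). Pkm, a pyruvate kinase, was at 0.87 in both (adjusted p = 0.0458 in DESeq2 for vesicles), and the enolase Eno1 was at 0.87 in BPC. Against Control, 2 of the 15 were higher and 2 lower at that p in vesicles, beside 3.99% and 7.61% of all genes. In secret it was 0 and 2, beside 4.14% and 7.61%, and in BPC 3 and 0, beside 3.92% and 7.42%. Against Glutamate, Aldoc, an aldolase of astrocytes, was at -1.45 in vesicles and Slc16a3, a lactate exporter, at 1.72 in BPC (adjusted p = 1 each).

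Of 17 tested hypoxia-responsive genes beyond the members, 3 had a higher and 1 a lower level in Glutamate at an unadjusted p below 0.05, beside 2.13% and 5.97% of all genes, with a median log2 fold change of 0.22 beside 0.085. Those with a higher level included P4ha1 and Hmox1, the last a heme oxygenase that was singled out after its value was seen (log2 fold change 1.40, adjusted p = 0.498). The lower one was Ndrg1, a stress-responsive gene. It was 60.5, 124 and 123 CPM in Control, 32.3, 11.3 and 14.4 CPM in Glutamate, and 149, 137 and 19.5 CPM in Memantine. All Glutamate libraries were below all Control libraries, where 7.76% of all genes were, and Memantine 3 again lay with the Glutamate libraries. The log2 fold changes were -2.41 (SE 0.61, adjusted p = 0.282) for Glutamate against Control and 2.40 (SE 0.61, adjusted p = 0.611) for Memantine against Glutamate. With 1 library left out the latter ranged from 2.02 to 2.98. Without Memantine 3 it was 2.89 with an adjusted p of 0.0142, the lowest of these. In Glutamate against Control, DESeq2 gave Ndrg1 an adjusted p of 0.0171. Ndrg1 was 18.04, 19.3 and 13.9 CPM with vesicles and 28.2, 14.1 and 16.5 CPM with secret. With BPC it was 31.8, 24.0 and 20.6 CPM. All these libraries were below the Control libraries, where 9.83%, 9.07% and 12.7% of all genes were in that order. Against Control, Ndrg1 was at -2.59, -2.39 and -2.01 in these groups (adjusted p = 0.173, 0.140 and 0.296). DESeq2 gave 0.00457 for vesicles and 0.0110 for secret, and the replicate block gave 0.0245 for vesicles. P4ha2, another prolyl hydroxylase subunit, was at 1.03 in BPC against Glutamate (adjusted p = 1) and at 1.08 in Memantine against Glutamate (adjusted p = 0.797), and is named after its values were seen.

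P4ha1, a collagen prolyl hydroxylase subunit, was 32.8, 30.9 and 29.5 CPM in Control and 48.4, 72.9 and 58.3 CPM in Glutamate. Its log2 fold change was 0.95 (SE 0.31, adjusted p = 0.364), and vesicles, secret and BPC were at 0.99, 1.01 and 0.92 against Control (adjusted p of 0.217 to 0.303). DESeq2 called it in secret and vesicles, with an adjusted p of 0.0338 and 0.0458.

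Of 8 tested genes of oxygen sensing, 0 had an unadjusted p below 0.05 in any comparison. Vhl, which marks the hypoxia-inducible factors for degradation, was at a log2 fold change of 0.36 (SE 0.28) in Glutamate against Control, Egln1, an oxygen-sensing prolyl hydroxylase, at 0.09 (SE 0.55) and Hif1an, which hydroxylates the factors' activation domain, at 0.44 (SE 0.62). Of 9 genes around pyruvate entry, 0 had such a p in Glutamate against Control, with a median of -0.16. Pdk4, another pyruvate dehydrogenase kinase, was at -2.57 in vesicles against Glutamate (adjusted p = 1; -1.71 without Glutamate 3), at 0.698, 0.562 and 0.389 CPM with vesicles and 1.68, 1.91 and 6.23 CPM in Glutamate. Against Control it was at -2.92 (adjusted p = 0.345) and without Control 1 at -1.34. The ribosomal RNA covariate brought these log2 fold changes to -1.37 and -1.43. Pdk3 had no unadjusted p below 0.05, and Mpc1, a subunit of the mitochondrial pyruvate carrier, had one in Memantine against Control only, at -1.07 (adjusted p = 1; -0.59 without Control 1, -1.83 without Memantine 3). Of the 7 listed receptor genes for Vegfa and Adm 4 were tested, and 0 had such a p in Glutamate against Control. Ramp3, a partner of the adrenomedullin receptor with at most 7.62 CPM in any library, was at -2.49 in vesicles against Glutamate (adjusted p = 1; -1.14 without Glutamate 1). Against Control it was at -3.53 in vesicles (adjusted p = 0.230, with 0.0244 in DESeq2 and 0.0266 with the replicate block). In secret against Control it was at -2.91 (adjusted p = 0.326, and 0.0208 to 0.731 over all alternatives). Its levels with secret were 1.73, 0.133 and 0 CPM, and without Glutamate_secret 1 that log2 fold change was -5.44. Nrp1, a Vegfa co-receptor, was at -1.80 in BPC against Control (adjusted p = 0.415; -0.67 without Control 1), and Ramp1 had none.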

How the data were processed

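RNA was sequenced in 18 libraries, 3 in each of 6 groups. The paper's methods describe poly(A) selection of mRNA from total RNA before library preparation. The authors deposited an estimated count per gene, made by read trimming (Trimmomatic, Cutadapt), Salmon quantification and gene-level summing in tximport, per the paper's methods. The submitters' processing notes also name STAR and the rn6 build, but no versions. The labels name a strand-specific DNBSEQ kit while the methods describe another platform, and whether counting used strand is not stated.

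Counts were rounded and tested with edgeR 4.0.16 (R 4.3.3): filterByExpr with a minimum count of 10, TMM factors, and the two-sided quasi-likelihood test on all 18 libraries with 1 mean per group, adjusted by Benjamini-Hochberg over 14398 genes. Library totals of 8409574 to 17206354 counts limit the precision of low genes such as Adm. The 78 rows of ribosomal RNA stayed in the library sizes. Ratios within libraries added 0.5 to each count and used exact permutation tests. DESeq2 1.42.0, edgeR's likelihood-ratio test, DESeq2 size factors, no filter, removal of ribosomal RNA rows, its log2 share as a covariate, only the 2 groups compared, a replicate block and leaving out each library were the alternatives. No 2 libraries held identical values.

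Samples with the same replicate number deviated together (r over 0.1 for all 3 numbers across genes) in Memantine, Glutamate_secret and Glutamate_BPC against Glutamate and in Glutamate_vesicles against Control; this pairing was read from the data, as the labels do not explain the numbers. It did not hold for all 3 numbers in the other 5 comparisons. There r was 0.31 to 0.84 for numbers 1 and 2, and -0.45 to 0 for number 3.

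The members and lists were chosen with earlier results of these data known. Log2 fold changes are printed for all members in Glutamate against Control and elsewhere where the unadjusted p was below 0.05. From each pathway list, the 3 genes with the smallest p in the test over 6 groups are named, except 1 that is not reported here, and for likeness the 2 genes with the highest r (the highest alone for 4 members). Other genes of the lists, and the markers, are named after their values were seen. Lists covered further glycolytic steps and lactate, other hypoxia-responsive genes, oxygen sensing, pyruvate entry, Vegfa and Adm receptors, and markers of neurons, astrocytes, microglia, oligodendrocyte lineage, endothelium, and fibroblasts and mural cells.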

Additional observations from a re-analysis of the deposited data

How the results depend on the processing

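The number of members called in Glutamate against Control was 0 by edgeR's quasi-likelihood test. It was 1 (Hk2) under DESeq2, the likelihood-ratio test, the ribosomal RNA covariate and the replicate block (block adjusted p = 0.0398). Samples of these groups deviated together for numbers 1 and 2 (r of 0.59 and 0.57) but not for number 3 (r of -0.12). Why the calls differed was not tested. In the test over 6 groups the number of members called was 2 under DESeq2 and 1 under the likelihood-ratio test. It was 0 to 1 when 1 library was left out, and in Glutamate_secret against Control it was 1 (Hk1) with the ribosomal RNA covariate. In Memantine against Glutamate it was 0 to 1 when 1 library was left out, reaching 1 (Slc2a3) without Memantine 3. Without that library 254 genes in all were called in Memantine against Glutamate and 500 in the test over 6 groups, where it had been 0 and 1.

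Members at an unadjusted p below 0.05 moved as follows. With the ribosomal RNA covariate they were 4 in the test over 6 groups, 5 in vesicles against Control, 3 in Memantine against Glutamate, and 2 each in BPC and secret against Glutamate. With only the 2 groups compared they were 1 in secret and in vesicles against Control and 0 in Memantine against Control. With the replicate block they were 2 in Memantine and in secret against Glutamate, where 8.03% and 3.24% of all genes had such a p. They were 4 in Glutamate and in vesicles against Control (14.8% and 19.8% of all genes), and 5 in BPC against Control (21.6%). In Glutamate against Control they ranged from 2 to 4 over all alternatives. When 1 library was left out they were 1 to 4 in BPC and in secret against Control, and 0 to 3 in vesicles against Control. They were then 0 to 1 in BPC, secret and vesicles against Glutamate and in Memantine against Control. In Memantine against Glutamate they were 1 to 2, and in Glutamate against Control 2 to 3. The number of all genes at that p moved as well. Over all alternatives it was 729 to 2276 in Glutamate against Control and 202 to 2121 in Memantine against Glutamate. It was 939 to 2855 in vesicles and 952 to 3110 in BPC against Control, and 862 to 2562 in the test over 6 groups.

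In Glutamate against Control the log2 fold change changed sign with 1 library left out for Ldha (range -0.38 to 0.086; 0.086 without Control 1, 0.082 without Glutamate 2), Pdk1 (-0.37 to 0.093; 0.093 without Control 2, 0.013 without Glutamate 1, 0.064 without Glutamate 2), Vegfa (-0.35 to 0.41; -0.20 without Control 1, -0.35 without Glutamate 2) and Pfkfb3 (-0.95 to 1.69; -0.95 without Glutamate 2), none of which was called. With 1 library left out, the difference in the Hk2 to Hk1 ratio of secret against Glutamate ranged from -0.42 to 0.63 (-0.22 without Glutamate 2, -0.16 without Glutamate 3, -0.11 without Glutamate_secret 1, -0.42 without Glutamate_secret 3), and that in the Slc2a1 to Slc2a3 ratio of vesicles against Glutamate from -0.19 to 0.031 (0.031 without Glutamate_vesicles 3). Under the replicate block the differences in ratios stayed as they were, with an exact permutation p of at least 0.25, the smallest that 3 pairs allow. All genes called ranged over the alternatives from 0 to 235 in Glutamate against Control, 0 to 700 in secret, 0 to 538 in vesicles and 0 to 251 in BPC against Control, and 0 to 717 in the test over 6 groups. Leaving out a library leaves 2 in its group, and low counts limit Adm, Ramp3, Pdk4 and Slc16a7.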
